A study of Mus musculus with 15 samples.

Results

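The alpha-defensin genes were taken as every gene of the deposited expression table whose name begins with Defa, which gave 27 of the 4178 genes listed. That rule reads names and no measured value, although the family was picked for description with earlier results of these data known. The ileum, the far end of the small intestine, was sampled from adult mice of the C57BL/6 strain that had been raised germ-free, that is without any microbes, and its RNA was sequenced in bulk. All 15 mice were given 200 µl by gavage and were sacrificed 21 days later. The PBS group (5 mice) received sterile phosphate-buffered saline and so remained the germ-free control. The RG group (5 mice) received Ruminococcus gnavus, a Clostridia-class bacterium of the human gut, and the LGG group (5 mice) received Lactobacillus rhamnosus GG, also named Lacticaseibacillus rhamnosus GG, a bacterium sold as a probiotic. Mice of the RG and LGG groups were thus given a single bacterial species, and per the labels fecal DNA was checked for it by PCR. The replicates are different animals, with 1 library from each. Values are TPM, the authors' estimate of each gene's transcripts per 1000000 transcripts of its library after correction for transcript length.

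Alpha-defensins, also called cryptdins in the mouse, are small cysteine-rich peptides that kill bacteria. They are made by Paneth cells, secretory cells at the base of the crypts of the small intestine, and are stored in granules and released into the lumen. In the mouse the precursor is cut to its active form by the metalloprotease Mmp7. Maturation of Paneth cells depends on Wnt signalling, whose transcription factors of the TCF/LEF family bind DNA. In RNA of whole tissue, fewer Paneth cells and less RNA per Paneth cell cannot be told apart.

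The 27 genes lay in 1 cluster on chromosome 8 between positions 21025545 and 21735471 of GRCm38, a span of 709.9 kb. In GENCODE M21 each has 2 exons and is protein coding. Of these, 22 are on the plus strand and 5 on the minus strand, namely Defa29, Defa38, Defa39, Defa42 and Defa43. The 5 minus-strand genes have coding sequences of 351 bases, against 201 in Defa27, 288 in Defa2, Defa20, Defa32 and Defa33, 285 in Defa28 and 282 in the other plus-strand genes. The length for Defa27 is that of the longest of its 2 annotated transcripts, and the other transcript was not measured. RefSeq lists Defa29, Defa38 and Defa39 also as CRS1C and Defa31 as CRS4C, names of cryptdin-related sequences, which are relatives of the cryptdins. Many members are near-identical, which matters because reads that match several genes can be divided among them in several ways, and the way used was not given in the sources used here. Of the 27 genes, 9 had no stretch of 31 transcript bases that no other member shares (Defa2, Defa20, Defa23, Defa31, Defa32, Defa33, Defa37, Defa42 and Defa43). Joining members that share at least 50% of such stretches gave 9 groups of close copies and 3 single genes, Defa24, Defa30 and Defa39. The sequences below are GENCODE M21 coding sequences, written 5′ to 3′ and, save for Defa42, from the start to the stop codon. They show the most abundant member, the shared sequence of 2 of the pairs whose division between copies is described below, and a pair that differs at a single base.
Defa24 (chr8:21734494-21735471, plus strand, the highest member and a single gene): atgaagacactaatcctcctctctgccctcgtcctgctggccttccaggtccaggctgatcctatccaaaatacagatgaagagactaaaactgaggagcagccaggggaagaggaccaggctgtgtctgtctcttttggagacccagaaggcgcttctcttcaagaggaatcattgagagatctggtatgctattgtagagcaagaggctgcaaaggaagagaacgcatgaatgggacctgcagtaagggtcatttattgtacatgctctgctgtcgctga
Defa23 (chr8:21055047-21056016, plus strand): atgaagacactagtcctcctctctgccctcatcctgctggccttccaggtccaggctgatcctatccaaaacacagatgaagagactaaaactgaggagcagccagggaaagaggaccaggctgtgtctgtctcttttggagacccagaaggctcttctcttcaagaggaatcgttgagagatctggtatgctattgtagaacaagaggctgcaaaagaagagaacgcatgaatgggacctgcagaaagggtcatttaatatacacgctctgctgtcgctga
Defa42 (chr8:21455445-21456560, minus strand, bases 52 to 351 of the coding sequence): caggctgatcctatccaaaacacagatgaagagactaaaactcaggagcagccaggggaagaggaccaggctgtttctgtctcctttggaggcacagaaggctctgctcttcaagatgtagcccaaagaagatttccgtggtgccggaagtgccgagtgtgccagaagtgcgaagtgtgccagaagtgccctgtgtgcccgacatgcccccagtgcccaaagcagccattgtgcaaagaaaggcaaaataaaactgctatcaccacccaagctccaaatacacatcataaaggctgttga
Defa2 (chr8:21378515-21379495, plus strand): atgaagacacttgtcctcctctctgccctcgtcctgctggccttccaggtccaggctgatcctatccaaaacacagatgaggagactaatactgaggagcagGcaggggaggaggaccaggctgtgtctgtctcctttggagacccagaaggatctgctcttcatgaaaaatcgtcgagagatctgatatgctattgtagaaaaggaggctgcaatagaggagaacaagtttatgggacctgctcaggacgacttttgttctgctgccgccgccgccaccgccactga
Defa20 (chr8:21509258-21510237, plus strand): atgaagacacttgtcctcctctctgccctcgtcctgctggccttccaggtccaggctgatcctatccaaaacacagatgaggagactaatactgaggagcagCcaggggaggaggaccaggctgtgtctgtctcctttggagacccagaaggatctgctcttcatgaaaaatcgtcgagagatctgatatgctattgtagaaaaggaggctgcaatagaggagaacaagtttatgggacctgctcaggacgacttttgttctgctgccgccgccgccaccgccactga
The coding sequence of Defa31 (chr8:21191614-21192549, plus strand) is the same as that of Defa23 at all 282 bases, and that of Defa43 (chr8:21593375-21594508, minus strand) is the same as that of Defa42 at all 351 bases. The capital in Defa2 and Defa20 marks their only difference, G103C, counted from 1 at the A of the start codon. Defa33 has the coding sequence of Defa2, Defa32 that of Defa20, and Defa17 that of Defa3. Values for a single gene of these pairs therefore rest on its untranslated ends or on the authors' way of dividing reads.

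RefSeq gave a promoter window for 16 of the 27 members on GRCm38.p6. The 250 bases before the RefSeq start are shown for 3 of them, chosen to show the plus-strand pattern with and without a repeated motif and the minus-strand pattern. Capitals mark a TCF/LEF-type motif, which reads ATCAAAG here since it lies on the other strand, and a TATA-type motif, TATAAA.
Defa21 (chr8:21025295-21025544, plus strand): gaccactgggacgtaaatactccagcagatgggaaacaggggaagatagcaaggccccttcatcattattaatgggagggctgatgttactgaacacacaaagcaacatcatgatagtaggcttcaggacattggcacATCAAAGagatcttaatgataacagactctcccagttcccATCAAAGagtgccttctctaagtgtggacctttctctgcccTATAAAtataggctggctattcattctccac
Defa30 (chr8:21134400-21134649, plus strand): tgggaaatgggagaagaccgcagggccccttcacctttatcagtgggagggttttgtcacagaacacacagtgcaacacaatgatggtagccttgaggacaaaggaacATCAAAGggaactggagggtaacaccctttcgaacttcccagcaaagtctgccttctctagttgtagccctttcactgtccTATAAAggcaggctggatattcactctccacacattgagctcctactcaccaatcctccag
Defa42 (chr8:21456518-21456767, minus strand): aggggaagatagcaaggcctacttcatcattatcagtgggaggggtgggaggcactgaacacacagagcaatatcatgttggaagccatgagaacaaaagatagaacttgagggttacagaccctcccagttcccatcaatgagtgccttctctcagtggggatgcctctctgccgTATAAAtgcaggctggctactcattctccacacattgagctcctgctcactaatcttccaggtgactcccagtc
Searched on both strands, the TCF/LEF-type motif CTTTGAT, whose reverse complement is marked above, was present in 13 of the 16 windows (81.2%), against 3.21% of the 32851 windows of this length in the genome. In Defa21 it lay at positions -112 to -106 and -72 to -66 from the start, and in Defa30 at -142 to -136 alone. In all 13 windows it was on the strand opposite to the gene. The 3 windows without it belonged to Defa38, Defa42 and Defa43, all of the minus-strand group. The related letters CTTTGAA and CTTTGTT were in 0 of the 16 windows, against 4.46 and 5.03% of all windows. TATAAA was in 15 of the 16 windows (93.8%), against 12.4% of all, and Defa28, the lowest member of those with a window outside Defa31, lacked it. The windows of Defa21 and Defa22 were identical, as were those of Defa23 and Defa31, of Defa42 and Defa43, of Defa2 and Defa20, and of Defa36 and Defa37. These matches describe letters only, and near-identical windows are not independent of each other.

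Several libraries stood apart in ways that touch the results. The listed genes summed to 58.6 to 65.5% of all TPM in PBS, 58.7 to 66.1% in RG and 48.05 to 52.5% in LGG. Of 5 ileum markers, Slc10a2, Fabp6, Fgf15 and Guca2b were not among the listed genes, so the tissue label could be checked only by Cubn. Cubn read 20.8 to 25.8 TPM in PBS, 29.2 to 52.3 in RG and 101.2 to 128 in LGG, with no overlap between groups. It was called higher in LGG than in PBS by limma, as were 54.7% of all genes tested. Of 9 colon markers 7 were listed, and Car1, a carbonic anhydrase abundant in colon, read 25134 TPM in LGG mouse 4 and 2549 TPM in LGG mouse 5, against at most 943 in the other 13 mice. The summed colon list was 29178 TPM in LGG mouse 4 and at most 5034 in every other mouse. By group it was 708 to 1656 TPM in PBS, 881 to 2137 in RG and 2197 to 29178 in LGG. Every LGG mouse was thus above every PBS and RG mouse in this sum. The listed genes were Slc26a3, Car1, Car4, Aqp8, Muc3, Mep1a and B4galnt2, and whether each is particular to colon was not tested. Of the 7 colon genes, 5 were higher in LGG than in PBS by limma at an adjusted p under 0.05, beside 54.7% of all genes tested. In RG mouse 5, mitochondrially encoded genes held 18.4% of all TPM, against 5.56 to 10.4% elsewhere. PBS mouse 1 was highest in a smooth muscle list (2622 TPM) and RG mouse 2 in a T cell list (343 TPM). Results are given with and without these libraries where they rest on them.

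Alpha-defensin transcripts were among the most abundant of the ileum in germ-free and RG mice and were about 10-fold lower in LGG mice. The summed TPM of the 27 genes was 105806, 110320.0, 125789.6, 119607 and 148466 in PBS mice 1 to 5. It was 142246, 122999, 146435, 122113 and 111204 in RG mice and 14911, 28207, 9975, 2165 and 4281 in LGG mice. Every LGG mouse lay below every PBS and RG mouse, whereas the PBS and RG mice overlapped. The means were 121998 ± 16727 (SD, n = 5) in PBS, 128999 ± 14829 in RG and 11908 ± 10386 in LGG. As a share of all TPM these were 12.2 ± 1.67%, 12.9 ± 1.48% and 1.19 ± 1.04%. The PBS mean was 10.2 times the LGG mean, a log2 ratio of -3.36 for LGG against PBS. Without LGG mouse 2, the highest LGG mouse, that ratio was -3.96, the PBS mean being 15.6 times the LGG mean. It was -3.09 without LGG mouse 4 and -2.79 without LGG mice 4 and 5. RG and PBS differed by a log2 ratio of 0.08, which was -0.27 when libraries were scaled by their median of ratios, so no direction can be given.

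**Figure D1:**
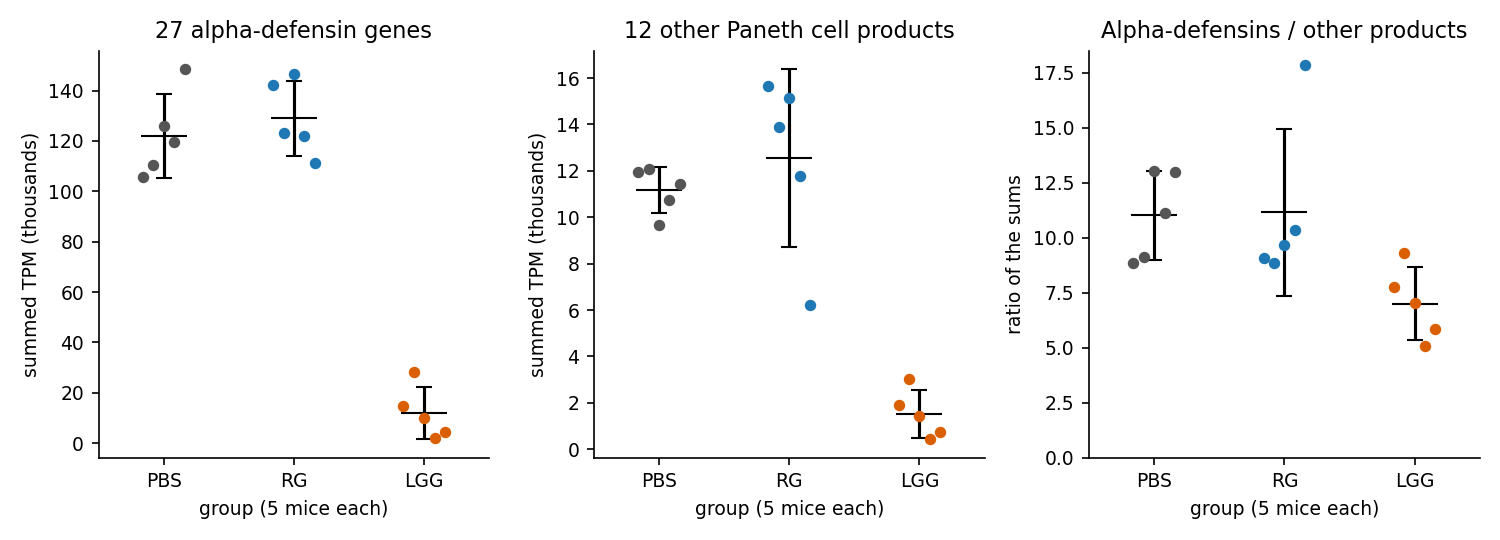
Summed TPM, in units of 1000, of the 27 alpha-defensin genes (left) and of 12 other Paneth cell products (middle), and the ratio of the 2 sums (right), with 1 point per mouse and the mean ± SD of the 5 mice of each group. All 5 LGG mice lie below all PBS and RG mice in both sums, while in the ratio the groups overlap, with RG mouse 5 at 17.9.

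LGG mice had lower transcript levels of nearly the whole family than PBS mice. Of the 27 genes, which all passed the filter on low values, 26 were lower and 1, Defa31, was higher by limma at an adjusted p under 0.05. Defa31 passed that filter only through its LGG values. Of all 3530 genes tested, 16.5% were lower and 54.7% were higher in this comparison. The median difference of the members was -3.93 on the log2(TPM + 1) scale, against a median of 1.17 over all genes tested. In 24 members every LGG mouse was below every PBS mouse, which held for 14.9% of all genes, and in Defa31 every LGG mouse was above, which held for 53% of all genes. Defa39 and Defa43 overlapped. The shift of the whole gene set depended on scaling. When libraries were scaled by their median of ratios, the median of all genes was 0.40, and 1391 genes were lower and 1729 higher, in place of 582 and 1932. Under that scaling the same 26 members were lower, Defa24 by -4.87.

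Defa24, the highest member, encodes a cryptdin. Its TPM was 23013, 21285, 24362, 25247 and 30949.9 in PBS mice 1 to 5 and 26951, 20779, 26267, 24683 and 25201 in RG mice. It was 2989, 5789, 1808, 355 and 789 in LGG mice, all below the other groups. It was the highest of all listed genes in all 5 PBS mice and in 4 of 5 RG mice, and ranked 6 to 263 in LGG mice. The difference for LGG against PBS was -4.00 ± 0.52 (SE), adjusted p = 4.48e-06 by limma, and without LGG mouse 4 it was -3.47.

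Defa30, the second most abundant member in PBS, read 12615, 10047, 12879.9, 11886 and 14536 TPM in PBS mice and 10233, 8281, 10165, 11782 and 11128 in RG mice. In LGG mice it read 1277, 2018, 926, 176 and 364. The RG mice overlapped the PBS mice and the LGG mice were below both, with a difference for LGG against PBS of -4.16 ± 0.47 (SE), adjusted p = 1.25e-06 by limma. In PBS mice every value of Defa24 was above every value of Defa30, whereas Defa30 and the next member, Defa2, overlapped.

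Defa2, the gene of cryptdin 2, read 8713, 9828, 11470.4, 9755 and 12874 TPM in PBS mice and 12751, 12179.5, 13972, 9948 and 8125 in RG mice. The LGG values were 1129, 2067, 640.1, 184 and 321, and LGG differed from PBS by -4.08 ± 0.47 (SE), adjusted p = 1.45e-06 by limma. Its close copies Defa20, Defa32 and Defa33 differed by -3.98, -4.57 and -4.68. Every LGG mouse was below every PBS mouse in each of these 4 genes.

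Defa21 and Defa22, a pair whose coding sequences differ at 2 bases, came next. Defa22 read 7099.6, 8493, 10690.2, 9911 and 12018 TPM in PBS mice, 11157, 9481, 11546, 10261 and 7272 in RG mice and 1237, 1642, 741, 185 and 328 in LGG mice. Defa21 read 6923, 8258, 9592, 9781 and 11494 TPM in PBS mice, 11837, 9194, 11653, 10075 and 8341 in RG mice and 1204, 1903, 721, 160.4 and 351 in LGG mice. PBS and RG mice overlapped in each gene and the LGG mice were apart. LGG differed from PBS by -3.93 ± 0.45 (SE), adjusted p = 1.32e-06 for Defa22 and by -3.86 ± 0.48 (SE), adjusted p = 2.71e-06 for Defa21, both by limma.

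The remaining members covered a wide range of levels. Leaving out Defa31, mean PBS levels ran from 24971 TPM (Defa24) to 54.8 (Defa28), a 455-fold range, with 15 members at 1000 TPM or more and 3 under 100. The ratio of the PBS mean to the LGG mean ran from 1.70 in Defa43 to 44.04 in Defa41, with a median of 10.96. LGG mouse 2 set much of these ratios: without it they were 2.85 in Defa43 and 91.4 in Defa41, with a median of 16.8. Defa41 fell from 760.2 ± 199 TPM (SD, n = 5) in PBS to 17.3 ± 20.6 in LGG, and Defa36 fell from 409 ± 118 to 10.4 ± 10.8, being listed at 0 in LGG mouse 4. Their differences were -5.97 (adjusted p = 1.66e-07) and -5.80 (adjusted p = 8.09e-07) by limma. The other extreme, Defa43, read 389, 321, 198, 369 and 406 TPM in PBS mice and 224, 517, 137, 39.9 and 71.3 in LGG mice, so that LGG mouse 2 was above all PBS mice. Its difference was -1.26 ± 0.49 (SE), adjusted p = 0.0311 by limma. This call was lost without LGG mouse 4 (-0.83, adjusted p = 0.0793 by limma), and without LGG mice 4 and 5 the difference was -0.38.

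**Figure D2:**
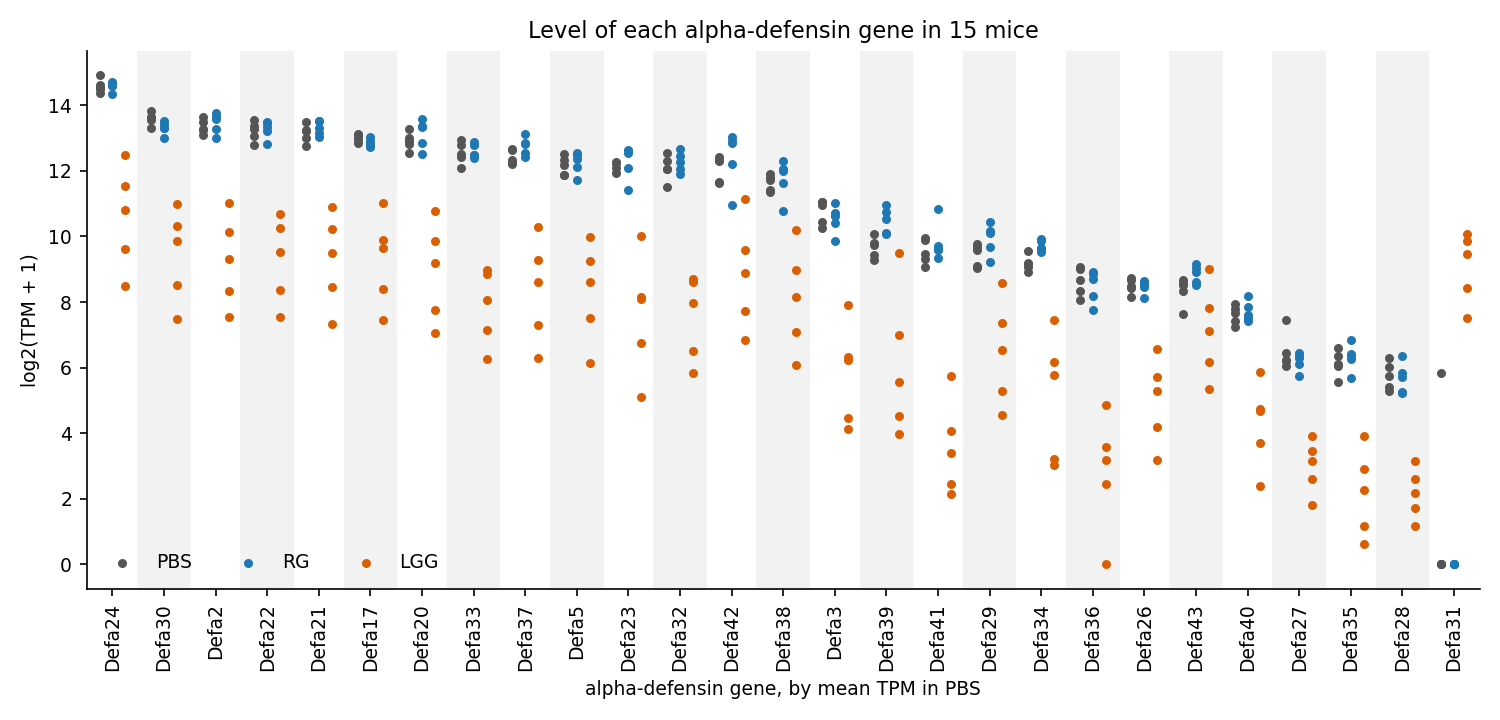
Level of each of the 27 alpha-defensin genes, ordered by mean TPM in PBS, as log2(TPM + 1), with 1 point per mouse (PBS grey, RG blue, LGG orange; 5 mice each). LGG points lie below all PBS points in 24 members (in Defa42 LGG mouse 2 lies above RG mouse 5), overlap PBS in Defa39 and Defa43, and lie above in Defa31, which is listed at 0 in 4 PBS mice and all 5 RG mice.

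Defa31 ran opposite to the rest of the family, and this was seen together with its identical partner Defa23. Defa31 was listed at 0 in PBS mice 1, 2, 3 and 5 and in all 5 RG mice, and at 56.5 TPM in PBS mouse 4. In LGG mice it was listed at 712, 1078, 922, 184 and 343 TPM. The fitted difference for LGG against PBS was 7.90 ± 0.92 (SE), adjusted p = 1.46e-06 by limma. That size depends on the pseudocount because most PBS values are 0 (10.6 with 0.1 and 5.23 with 10). Defa31 met the filter, TPM of at least 1 in 5 or more libraries, only through the LGG mice, where it was high. Its p-value therefore rests on the same values that admitted it to the tests. Defa23 went the other way, at 4920.3, 4837, 4317, 3892 and 4797 TPM in PBS mice and 282, 1033, 272, 33.7 and 106 in LGG mice, a difference of -4.52 ± 0.62 (SE), adjusted p = 6.57e-06 by limma. Every 31-base stretch of the Defa31 transcript is also in Defa23, so a read inside Defa31 cannot tell them apart. Summed, the pair read 4920.3, 4837, 4317, 3949 and 4797 TPM in PBS mice, 5961, 6414, 6240.4, 4384 and 2754 in RG mice and 994, 2112, 1194, 217 and 449 in LGG mice. The sum was lower in every LGG mouse, by -2.59 ± 0.46 (SE), adjusted p = 9.87e-05 by limma. Defa31 held 51.1 to 84.5% of the pair in LGG mice and at most 1.43% in the others. Whether the sequence copy or the authors' division of shared reads moved with LGG was not tested.

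Among the 7 pairs of close copies, the division between the copies kept LGG and PBS mice apart in 4 and overlapped in 3. Defa43 held 5.75 to 11.01% of Defa42 plus Defa43 in PBS mice and 18.6 to 25.8% in LGG mice, with no overlap. In RG mice it held 4.58 to 22.1%, the highest being RG mouse 5. Defa3, the gene of cryptdin 3, held 13.3 to 20.5% of Defa3 plus Defa17 in PBS mice, 11.97 to 21.2% in RG mice and 5.89 to 10.3% in LGG mice, which were apart from both. Defa32 and Defa33 together held 33.1 to 38.00% of the group of 4 copies with Defa2 and Defa20 in PBS mice and 18.2 to 30.7% in LGG mice. Defa29 held 16.5 to 18.7% of Defa29 plus Defa38 in PBS mice, 20.3 to 25.5% in RG mice and 22.01 to 25.2% in LGG mice, so that the RG and LGG mice were both above PBS. The shares within Defa21 and Defa22, Defa26 and Defa40, and Defa27 and Defa28 overlapped between LGG and PBS mice. So did that of Defa36 in the identical coding pair Defa36 and Defa37, at 4.87 to 7.86% in PBS and 0 to 4.94% in LGG. These shares carry no test, and the copies they compare share most of their bases.

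**Figure D3:**
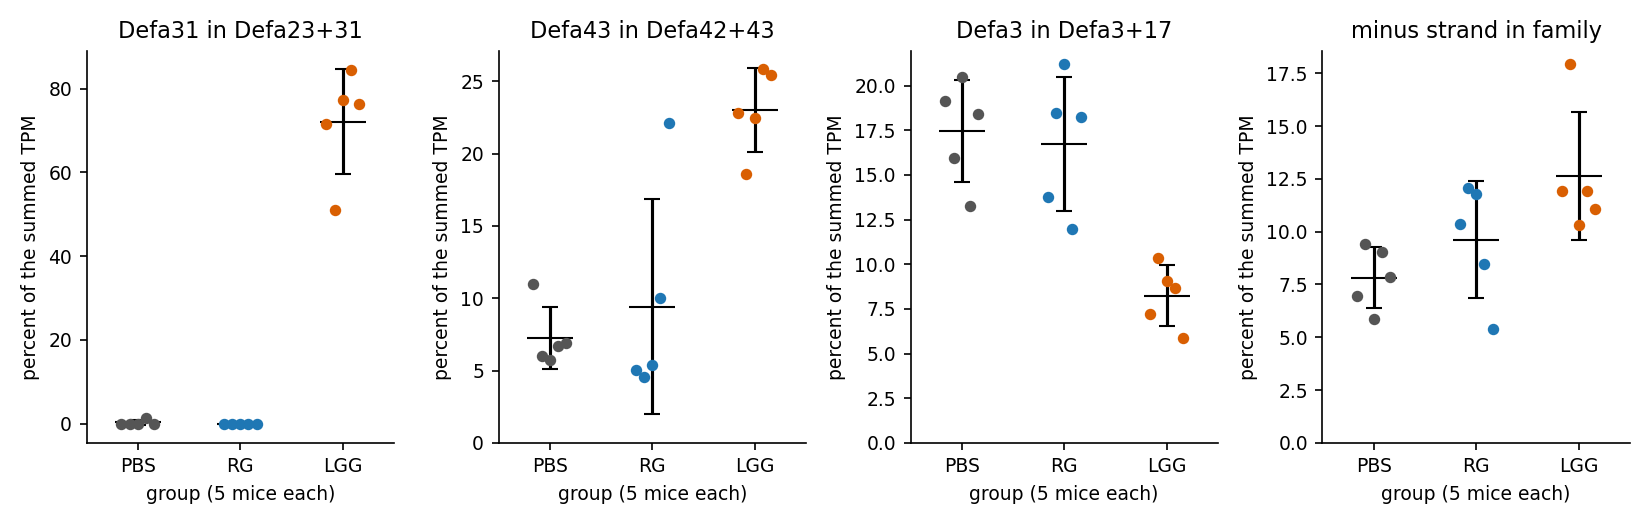
Percent of the summed TPM held by Defa31 in Defa23 plus Defa31, by Defa43 in Defa42 plus Defa43, by Defa3 in Defa3 plus Defa17, and by the 5 minus-strand genes in the whole family, with 1 point per mouse and the mean ± SD of 5 mice. LGG mice lie apart from PBS mice in all 4 panels, and RG mouse 5 lies at 22.1% in the Defa43 panel.

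With close copies summed, each of the resulting 12 features was lower in LGG than in PBS, against 16.1% of all 3515 features lower in that fit. The differences ran from -4.22 for Defa2 with Defa20, Defa32 and Defa33 to -2.59 for Defa23 with Defa31, with standard errors of 0.35 to 0.75. The sum of Defa21 and Defa22 differed by -3.90, that of Defa3 and Defa17 by -3.88, and that of the 6 copies Defa5, Defa34, Defa35, Defa36, Defa37 and Defa41 by -4.08. The lowest pair, Defa27 with Defa28, differed by -3.64, and Defa26 with Defa40 by -3.48. Summing the copies thus left no feature that was higher in LGG.

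**Figure D4:**
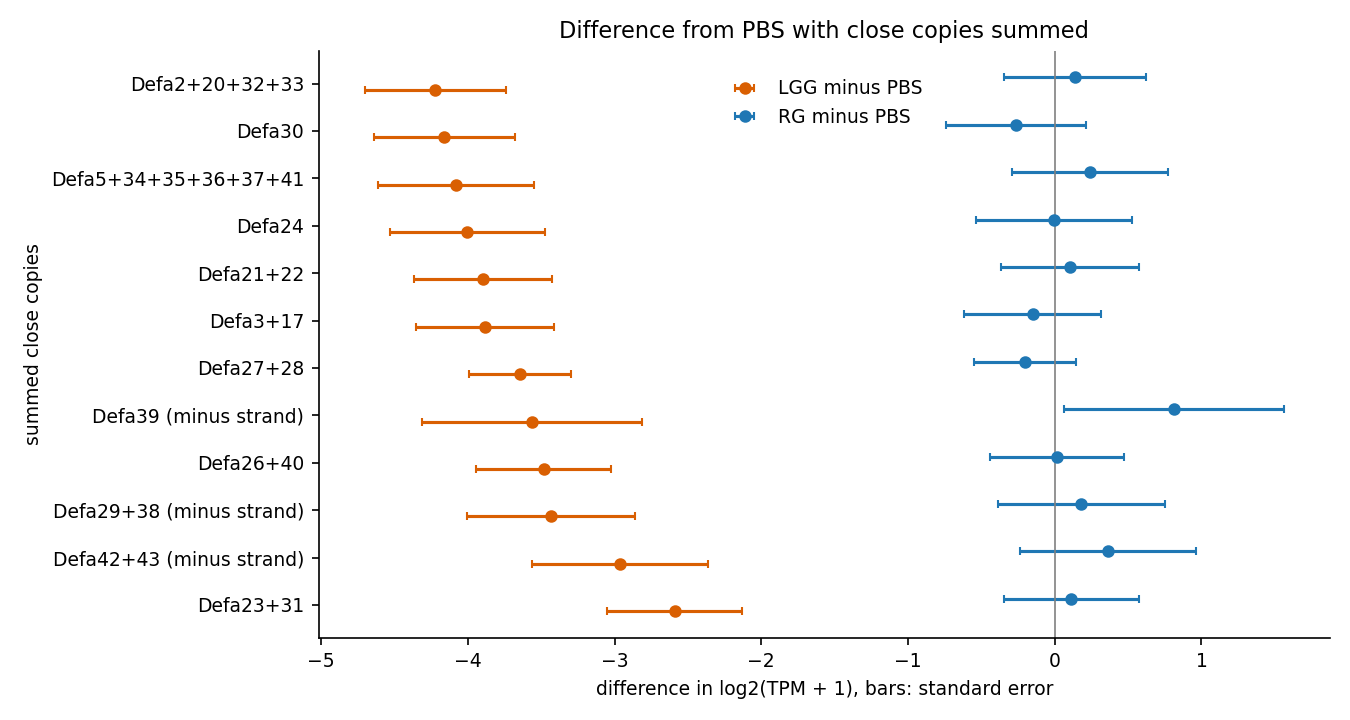
Difference from PBS in log2(TPM + 1) for the 12 features left after close copies are summed, for LGG (orange) and RG (blue), with the standard error from limma as bars and n = 5 mice per group. All 12 LGG differences lie between -4.22 and -2.59, and the RG differences between -0.26 and 0.81.

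The 5 minus-strand genes, among them the CRS1C genes Defa29, Defa38 and Defa39, were also lower in LGG. Defa38, the second highest of them, read 2626, 3350.2, 2753, 3628 and 3863 TPM in PBS mice, 4071, 4239.6, 5064, 3192 and 1741 in RG mice and 502, 1175, 283, 66.95 and 134 in LGG mice. Their differences for LGG against PBS were -3.55 for Defa38, -2.97 for Defa29, -3.56 for Defa39, -3.23 for Defa42 and -1.26 for Defa43. The 21 plus-strand members other than Defa31 lay between -5.97 and -3.33, with a median of -4.00. Within each library, the minus-strand genes held 6.97, 9.41, 5.86, 9.04 and 7.87% of the family sum in PBS mice 1 to 5. They held 10.4, 12.1, 11.8, 8.45 and 5.37% in RG mice and 11.9, 17.9, 10.3, 11.9 and 11.1% in LGG mice. The LGG mice were above all PBS mice and overlapped the RG mice. Without the copies Defa42 and Defa43 the shares were 3.12 to 4.55% in PBS and 4.22 to 8.09% in LGG, and overlapped. This split was chosen after the values were seen and has no test.

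RG mice showed no called change of any alpha-defensin gene. Of the 27 members 0 were called for RG against PBS by limma, and 0 had an unadjusted p under 0.05, whereas 26.9% of all genes tested were called, 22.8% of those tested higher and 4.08% lower. With close copies summed, 0 of 12 features were called, against 27.4% of all features, 23.2% higher and 4.21% lower. The RG and LGG comparisons share the PBS mice. The member differences ran from -1.17 (Defa31, set by its value in PBS mouse 4 alone) to 0.81 (Defa39), with a median of 0.10 against 0.38 over all genes. With median-of-ratios scaling the all-gene median was 0.07, 42 genes were higher and 570 lower in place of 804 and 144, and again 0 members were called. For Defa24 the difference was -0.01 with a 95% interval of -1.12 to 1.11. For Defa30 it was -0.26 (-1.27 to 0.74), for Defa2 0.10 (-0.90 to 1.11), for Defa22 0.05 (-0.91 to 1.01) and for Defa21 0.16 (-0.86 to 1.18). In 0 of the 27 members did the PBS and RG mice fall apart, against 13% of all genes with RG above and 2.72% with RG below.

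These tests share 1 estimate of the spread with the LGG mice, which varied most among themselves, and a fit of the PBS and RG mice alone called 2 of the 27 members higher, beside 9.72% of all genes higher in that fit. In it Defa39 was higher in RG by 0.81 (adjusted p = 0.0452) and Defa34 by 0.54 (adjusted p = 0.0475) by limma. Defa39, a CRS1C gene, read 687, 894, 626, 852 and 1088 TPM in PBS mice and 1728, 1493, 1971, 1095 and 1069 in RG mice, so that RG mouse 5 and PBS mouse 5 were the overlapping pair. Defa34, a close copy of Defa5, read 483, 570.4, 581, 535 and 752 TPM in PBS mice and 969, 792, 806, 734 and 939 in RG mice, with RG mouse 4 below PBS mouse 5. All 5 minus-strand members had differences above 0 for RG (0.10 to 0.81), of which those of Defa38 and Defa42 were -0.24 and -0.02 with median-of-ratios scaling. RG mouse 5 was the lowest RG mouse in Defa42 (1997 TPM against 4700.2 to 8382) and the highest in Defa41 (1824 against 645 to 834). That mouse also had the high mitochondrial share given above, and the part of that share in these values was not tested.

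The bacterial groups differed from each other as LGG differed from PBS. For RG against LGG, 26 members were higher in RG by limma, against 8.19% of all genes. Defa31, which passed the filter only through its LGG values, was lower, as were 53.5% of all genes. The all-gene counts depended on scaling: 289 were higher and 1887 lower here, 1088 and 1057 with median-of-ratios scaling and 1242 and 554 with upper-quartile scaling. All 27 members were called under each of these scalings. The median difference was 4.00, against -0.72 over all genes. In 24 members every RG mouse was above every LGG mouse, which held for 4.08% of all genes. Defa42 and Defa43 overlapped, and in Defa31 every RG mouse was below, as in 36.4% of all genes. Defa24 differed by 4.00 ± 0.52 (SE), adjusted p = 2.85e-05 by limma, and Defa41 had the greatest difference among members higher in RG, 6.25 ± 0.52 (SE), adjusted p = 3.73e-06 by limma.

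LGG mice varied far more among themselves than the other mice, and the members varied together. The highest family sum was 13.03 times the lowest in LGG, against 1.40 times in PBS and 1.32 times in RG. LGG mouse 2 was the highest LGG mouse in 24 of 27 members and LGG mouse 4 the lowest in 27 of 27. In 21 members the 5 LGG mice stood in the same order as in the family sum. Among 12 other Paneth products LGG mouse 2 was highest in 8 and LGG mouse 4 lowest in 8. LGG mice 4 and 5, the lowest for the family, were also those with the high Car1 given above, and the part of that in their low values was not tested. LGG mice 1 to 3, whose Car1 was 22.04, 12.1 and 392 TPM, were also all below every PBS mouse in the family sum. Their summed colon list, at 2362, 2197 and 3555 TPM, was above that of every PBS mouse (708 to 1656 TPM). Most of these 3 sums lay in listed genes other than Car1. The part of the colon list in their family sums was not tested.

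Within the family, the share of the top gene overlapped between groups, and that of the top 3 genes kept only LGG and PBS apart. Defa24 contributed 20.5 ± 1.09% (SD, n = 5) of the PBS family sum. It contributed 19.3 ± 2.23% of the RG sum and 18.7 ± 1.65% of the LGG sum, with overlapping mice. The 3 highest members in PBS, Defa24, Defa30 and Defa2, made up 39.3 ± 1.67% of the sum in PBS mice, 36.2 ± 2.69% in RG mice and 34.5 ± 1.19% in LGG mice. In this share all LGG mice (33.04 to 36.2%) were below all PBS mice (37.3 to 41.9%), and RG overlapped both. With the 5 highest members in PBS the LGG mice (47.6 to 52.6%) overlapped the PBS mice (52.5 to 55.7%). The members of these shares were picked by their PBS means. Of the 20 highest listed genes, 7 to 10 were alpha-defensins in PBS mice, 7 to 11 in RG mice and 0 to 1 in LGG mice.

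Other products of Paneth cells were lower in LGG too. Of a list of 16 such genes 12 were listed and tested (Itlnb, Kcnn4, Ang5 and Ang6 were not listed). For LGG against PBS, 9 of them were lower, 1 was higher and 2 (Mptx1 and Pnliprp2) were not called, with a median of -1.62. Of all genes tested, 16.5% were lower and 54.7% higher, with a median of 1.17. Lyz1, the Paneth cell lysozyme, read 5234, 8589.8, 6841, 7319 and 7992 TPM in PBS mice, 10634, 7445, 9470.3, 7224 and 3710.2 in RG mice and 1063, 1587, 664, 162 and 353 in LGG mice. The LGG mice were all lower, by -3.62 ± 0.48 (SE), adjusted p = 4.85e-06 by limma. Mmp7, the protease that activates mouse alpha-defensins, read 320, 370.2, 401, 358 and 371 TPM in PBS mice, 418, 397, 427, 500 and 200.2 in RG mice and 70.5, 72.2, 52.2, 15.1 and 29.3 in LGG mice. It was lower in every LGG mouse, by -3.10 ± 0.35 (SE), adjusted p = 1.25e-06 by limma. Ang4, an antimicrobial ribonuclease, and Mptx2, a mucosal pentraxin of Paneth cells, differed by -4.47 (adjusted p = 3.56e-06) and -4.23 (adjusted p = 3.42e-05) by limma. Slc30a2, a zinc transporter of Paneth cell granules, was the exception, at 50.9 ± 14.3 TPM in LGG against 12.3 ± 1.22 in PBS (SD, n = 5), a difference of 1.91 ± 0.20 (SE), adjusted p = 4.87e-07 by limma.

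Set against these products, the level of the alpha-defensins overlapped between groups. The family sum divided by the sum of the 12 other products was 8.85, 9.13, 13.04, 11.1 and 12.98 in PBS mice, 9.08, 8.85, 9.67, 10.4 and 17.9 in RG mice and 7.76, 9.32, 7.05, 5.09 and 5.84 in LGG mice. The groups overlapped, although the LGG mean of 7.01 ± 1.66 was below the PBS mean of 11.02 ± 2.01 (SD, n = 5). Divided by Lyz1 alone, the means were 17.3 ± 2.83 in PBS, 18.4 ± 6.59 in RG and 14.5 ± 2.12 in LGG, also overlapping. For RG against PBS, 0 of the 12 other products were lower and 2 were higher, beside 4.08% and 22.8% of all genes tested. These were Slc30a2, by 0.74 (adjusted p = 0.0274), and Nupr1, a stress-response regulator, by 0.56 (adjusted p = 0.0334) by limma. Median-of-ratios scaling gave 0 calls among the 12 products for RG, and 11 lower and 1 higher for LGG. Of all 3530 genes tested, that scaling gave 570 lower and 42 higher for RG, and 1391 lower and 1729 higher for LGG.

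Most listed genes for Paneth cell differentiation, secretion and sensing were higher in LGG, as were 54.7% of all genes tested. Of 27 genes of the Wnt pathway and Paneth cell differentiation 7 were listed and 6 tested, and all 6 were higher in LGG than in PBS. Those of smallest p were Ctnnb1 (beta-catenin), Hnf4a (a transcription factor of gut epithelium), Fzd5 (a Wnt receptor of Paneth cells) and Efnb1 (an ephrin that helps to position cells along the crypt), at 1.38, 1.41, 1.37 and 1.66. In RG, Fzd5 (0.60) and Axin2, a Wnt target (0.84), were higher, as were 22.8% of all genes tested. With median-of-ratios scaling 1 of the 6 was higher in RG, beside 42 of all 3530 genes tested. Of 25 genes of Paneth cell secretion, autophagy and microbial sensing 9 were listed and 8 tested, of which 7 were higher in LGG and 5 in RG. With median-of-ratios scaling these counts were 7 and 0, beside 1729 and 42 of all 3530 genes tested, and 1 of the 8 was lower in LGG. Slc30a2, the exception among the Paneth products above, is in this list too. The LGG examples of smallest p were Slc39a4 (a zinc importer, 2.40), Gsdmd (a pore-forming protein, 1.64) and Ticam1 (a Toll-like receptor adaptor, 1.37). The list medians for LGG against PBS were 1.39 and 1.56, beside the all-gene median of 1.17, and these genes are also expressed outside Paneth cells.

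Genes of the endoplasmic reticulum, where secreted peptides are folded, went both ways in LGG, as all genes did. Of 17 such genes 9 were listed and tested. Of these, 5 were higher and 3 lower in LGG, beside 54.7% and 16.5% of all genes tested. The chaperones Hsp90b1 (1.79), Hspa5 (1.79) and Calr (1.85) were higher. The prolyl isomerase Fkbp11 (-1.80) was lower, as were Sec61b (-0.65) and Ssr4 (-0.80) of the channel that admits secreted proteins, the last pair named after their values were seen. In RG, Hsp90b1 (0.82), Hspa5 (0.83) and Calr (0.74) were higher, beside 22.8% of all genes tested. Fkbp11 (-0.80) and Ssr4 (-0.47) were lower, beside 4.08%. Median-of-ratios scaling gave 0 higher and 4 lower for RG, beside 42 higher and 570 lower among all 3530 genes tested.

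Markers of other epithelial cells moved in these comparisons as well. Of 18 enterocyte genes 14 were listed, with a summed level of 1597 to 2261 TPM in PBS, 3182 to 4002 in RG and 8054 to 13703 in LGG. All 14 were higher in LGG and 10 in RG than in PBS, beside 54.7% and 22.8% of all genes tested. Of 12 goblet cell genes 6 were listed, without Muc2, at 17713 to 22077 TPM in PBS, 8846 to 18390 in RG and 4133 to 10314 in LGG. Of the 6, 5 were lower in LGG and 1 in RG, beside 16.5% and 4.08% of all genes tested. Their part in the alpha-defensin differences was not tested.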

How the data were processed

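The authors deposited 1 table of TPM for 4178 genes in 15 libraries. Libraries came from a NEBNext Ultra II preparation, per the labels' protocols. The genome build was GRCm38 (mm10), per the submitters' processing notes. The aligner, the counting tool, its treatment of reads shared by copies and the rule that chose the listed genes were not given in the sources used here. Sequencing depth cannot be read from TPM and is unknown, so counting errors are not given. A value listed at 0 may be a failed estimate.

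Genes with TPM of at least 1 in 5 or more libraries were tested (3530 tested, 648 not, and 27 of 27 alpha-defensins passed). limma-trend 3.58.1 in R 4.3.3 with robust shrinkage was fitted to log2(TPM + 1) in 1 model with 3 groups. Two-sided p-values were adjusted by Benjamini-Hochberg over all genes tested, at a threshold of 0.05. Every adjusted p is limma's. Differences are on the log2(TPM + 1) scale and understate changes of low genes. Sums, shares and ratios over members carry no test. The fit was tested on simulated data. Tables were handled in Python 3.11.15 with pandas 2.3.3 and numpy 2.4.6, and plots drawn with matplotlib 3.10.9.

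All 27 members were matched by Ensembl identifier to GENCODE M21 (GRCm38), and coding sequences and shared 31-base stretches came from its transcripts. Promoter windows came from RefSeq on GRCm38.p6. Described in full were the 5 members of highest mean TPM and any member opposite in sign to the median member for LGG or called for RG. Other members are described with their close copies, and other genes came from 13 lists, with up to 4 of smallest p per list and comparison. The members and lists were chosen with earlier results of these data known. Alternatives changed the pseudocount, filter, scaling, samples fitted, replicate block, shrinkage, copies and libraries. Same-numbered mice did not deviate together, so the numbers were not taken to pair mice.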

Additional observations from a re-analysis of the deposited data

Results flagged for a closer look

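Of 93 groups of 5 mice checked for a mouse far from the other 4, 9 had a gap to the nearest other mouse, divided by the range of the group, above the critical value of 0.71. For independent groups of normally distributed values, chance gives about 1 in 20. These groups reuse the same mice and the members vary together, so 9 of 93 cannot be set against that rate. In LGG, mouse 2 stood high in 5 of these. Its Defa23 level was 1033 TPM against 33.7 to 282 in the rest of that group (gap ratio 0.752). Its Defa41 level was 53.0 TPM against 3.43 to 15.9 (0.749), and its Defa3 level was 239 TPM against 16.4 to 79.9 (0.715). Defa39 read 725 TPM against 14.6 to 127 (0.842), and the minus-strand genes held 17.9% of the family sum against 10.3 to 11.9% (0.788). In RG, mouse 5 had a Defa41 level of 1824 TPM against 645 to 834 (0.840) and a ratio of the family to other Paneth products of 17.9 against 8.85 to 10.4 (0.832). In PBS, mouse 4 had Defa31 at 56.5 TPM with the other 4 mice listed at 0 (1.00, which any value above 0 would give). PBS mouse 1 had Defa27 at 175 TPM against 65.3 to 86.6 (0.805).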

How the results depend on the processing

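Under all alternatives in which they were tested, 26 of 27 members were called for LGG against PBS, 27 of 27 for RG against LGG, and 0 changed sign in either. The exception was Defa43, whose call for LGG against PBS was lost in 9 alternatives with values of -1.26 to -0.38. Both counts include Defa31, which ran opposite to the rest and met the main filter only through its LGG values. In the main fit, 582 of all 3530 genes were lower and 1932 higher for LGG against PBS. For RG against LGG, 289 were higher and 1887 lower. With close copies summed, the 27 members became 12 features, and all 12 were called in each of these comparisons, with and without median-of-ratios scaling. All were lower in LGG. Of all 3515 features without that scaling, 567 were lower and 1931 higher for LGG against PBS, and 1883 lower and 273 higher for RG against LGG. With that scaling, 1377 were lower and 1729 higher for LGG against PBS, and 1050 lower and 1072 higher for RG against LGG. The number called for LGG against PBS was 26 to 27 over the settings that leave out 1 mouse, 26 without RG mice 2 and 5 and PBS mouse 1, and 25 without LGG mice 4 and 5, where Defa31 did not pass the filter. With 1 mouse left out, 484 to 663 of all genes were lower and 1923 to 1979 higher. Without RG mice 2 and 5 and PBS mouse 1, 620 of 3436 were lower and 1979 higher. Without LGG mice 4 and 5, 508 of 3515 were lower and 1927 higher. For RG against PBS the number called was 2 with only the 2 groups compared, beside 343 higher and 40 lower of all 3530 genes, and 0 otherwise.

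The log2 ratio of the sums for RG against PBS was -0.27 with median-of-ratios and -0.21 with upper-quartile scaling, in place of 0.08, and 0.03 to 0.16 with 1 mouse left out. For LGG against PBS it was -3.36, with -3.96 to -3.09 when 1 mouse was left out. The ratio of the family to other Paneth products for LGG against PBS was -0.65 (log2), and -0.25 with Lyz1 alone. The share of the 3 highest members was -4.79 percentage points from PBS in LGG, and -1.77 for the highest member alone. The minus-strand share differed by 4.82 percentage points, and by 1.47 without Defa42 and Defa43. Defa38 for RG against PBS was -0.24 (median-of-ratios), -0.18 (upper-quartile) and -0.035 to 0.350 with 1 mouse left out, the lowest without RG mouse 3, and Defa42 was -0.018 (median-of-ratios). The cause of these changes was not tested. A replicate block left 26 members called for LGG against PBS, changing only the call of Defa43 (adjusted p = 0.0537 by limma), and 0 for RG against PBS. Same-numbered mice deviated with correlations of -0.46 to 0.29, with 4 of 15 pairs over 0.1, and 1 of 15 libraries was closest to its own number, so the numbers gave no pairing. Summed copies with median-of-ratios scaling, the minus-strand share and leaving out LGG mice 4 and 5 were chosen after seeing the data. Depth is unknown, which limits what values near 0 can show.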
